A study of Mus musculus with 3 samples.

Results

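The EGF receptor family in gastric corpus organoids was described through 10 genes, taken as every row of the deposited expression table whose gene symbol was Areg, Ereg, Hbegf, Tgfa, Btc, Epgn, Egfr, Erbb2, Erbb3 or Errfi1. All 10 symbols were found, once each, among 56691 genes. Of the 10, 8 passed a filter of at least 1 FPKM (fragments scaled to exonic length and to the library's total) in at least 1 library; the ligand genes Ereg and Epgn did not. RNA was sequenced from 3 cultures of mouse stomach corpus organoids, epithelial structures grown in a gel matrix in a medium for proliferation, with 1 library per group. The groups were Gpx4 KO-Mist1+, from mice with floxed Gpx4 (Gpx4F/F), Mist1Cre/ERT2 and a red fluorescent reporter behind a stop cassette (RFPLSL), with the genotype label Gpx4 KO; Mist1+, from Mist1Cre/ERT2;RFPLSL mice, with a wild-type label; and Mist1-, also with a wild-type label and from Mist1Cre/ERT2;RFPLSL mice. All mice were about 8 weeks old and every culture carries the label P5. The Cre is expressed from the Mist1 locus, which is active in secretory cells such as gastric chief cells, and it acts only when its hormone-binding part is activated.

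The libraries held 14943918 to 16396693 counts. Gpx4 had 2569 counts (90.9 FPKM) in the library labelled Gpx4 KO-Mist1+, 1998 (71.6 FPKM) in Mist1+ and 4399 (171 FPKM) in Mist1-, so it was not lower in that library, called the labelled knockout from here, than in Mist1+. Bhlha15, the gene of Mist1 itself, stood at 6.46 FPKM in the labelled knockout, 10.2 in Mist1+ and 5.40 in Mist1-. A count over the whole gene is no check of a deleted part, and every direction given for the labelled knockout belongs to its label. The 5 epithelial markers (Epcam, Cdh1, Krt8, Krt18 and Krt19) summed to 2405 FPKM in the labelled knockout, 2358 in Mist1+ and 3312 in Mist1-. The chief cell markers Pgc and Cblif were abundant, while Pga5 was at 0 counts throughout. Of 4 markers of acid-secreting parietal cells, Atp4b and Slc26a7 were at 0 counts throughout. Atp4a had 83 counts in the labelled knockout, 103 in Mist1+ and 58 in Mist1-, and Kcne2 had 1, 4 and 6 in that order. The 6 fibroblast markers summed to 13, 7 and 11 counts and the 3 endothelial markers to 17, 13 and 10 counts in the same order, while Ptprc, which marks immune cells, had 0, 1 and 1. The macrophage marker Cd68 stood apart from the other 4 immune markers, with 24.4 FPKM in the labelled knockout, 5.06 in Mist1+ and 4.37 in Mist1-, and its part in the results was not tested. With 1 library per group no test across cultures exists; the 95% intervals given in parentheses cover counting error only and may miss the spread between cultures. In such bulk samples fewer cells of a type and less RNA per cell cannot be told apart.

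EGF family ligands are made as membrane-bound precursors and are released by ADAM proteases. They bind ERBB receptors, tyrosine kinases that work as pairs and pass their signal to the RAS-ERK and PI3K pathways. Egfr binds the ligands named here, Erbb2 has no known ligand and serves as a partner, and Erbb3 binds neuregulins and has little kinase activity of its own. Errfi1, also called Mig6, is an intracellular inhibitor that binds the kinase part of the receptor and is itself induced by receptor signalling. In the stomach TGF-alpha restrains acid secretion and supports mucous surface cells, and too much of it enlarges the gastric folds in mouse models.

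Of the 6 ligand genes 4, namely Epgn, Ereg, Areg and Btc, lie side by side on mouse chromosome 5, and no other gene that GENCODE M21 calls protein-coding overlaps the 375531 bases from 91027464 to 91402994 (GRCm38) that they span. Areg (ENSMUSG00000029378) stands at 91139599 to 91148432 on the plus strand, and Btc (ENSMUSG00000082361) at 91357261 to 91402994 on the minus strand. The 250 bases before the RefSeq start of these neighbours (build GRCm38.p6) are printed because their levels differed in pattern, that of Errfi1 because it holds the same letters as the Areg window while its level had another pattern, and that of Egfr because it was the receptor furthest apart between the labelled knockout and Mist1+. Capitals mark matches to 6 motifs that were searched on both strands. The cAMP response element was searched as TGACGTCA. The site of AP-1, a factor whose subunits include Fos, was searched as TGANTCA. The core of a site for TEAD factors, which act with YAP, was searched as GGAATG. The core of a hypoxia response element, which HIF factors bind, was searched as ACGTG. Sites of the kind that SP1 binds, known as GC boxes, were searched as GGGCGG. Letters known as the TATA box, which help to place the start of transcription, were searched as TATAAA.
Areg, chr5:91139349-91139598, plus strand: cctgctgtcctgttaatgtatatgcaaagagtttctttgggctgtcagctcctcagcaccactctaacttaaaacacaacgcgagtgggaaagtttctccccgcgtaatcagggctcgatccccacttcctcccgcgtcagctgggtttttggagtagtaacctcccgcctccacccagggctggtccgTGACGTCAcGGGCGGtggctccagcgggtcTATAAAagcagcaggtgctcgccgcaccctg
Btc, chr5:91402995-91403244, minus strand: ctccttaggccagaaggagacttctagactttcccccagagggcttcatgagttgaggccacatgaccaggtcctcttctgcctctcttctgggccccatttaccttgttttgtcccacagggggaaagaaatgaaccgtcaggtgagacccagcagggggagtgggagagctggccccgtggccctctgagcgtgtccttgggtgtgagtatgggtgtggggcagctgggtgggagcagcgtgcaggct
Errfi1, chr4:150854820-150855069, plus strand: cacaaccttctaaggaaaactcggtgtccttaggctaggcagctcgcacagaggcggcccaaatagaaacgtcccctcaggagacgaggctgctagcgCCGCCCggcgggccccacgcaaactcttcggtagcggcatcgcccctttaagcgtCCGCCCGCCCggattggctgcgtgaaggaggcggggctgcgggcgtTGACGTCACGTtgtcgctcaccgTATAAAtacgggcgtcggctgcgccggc
Egfr, chr11:16751953-16752202, plus strand: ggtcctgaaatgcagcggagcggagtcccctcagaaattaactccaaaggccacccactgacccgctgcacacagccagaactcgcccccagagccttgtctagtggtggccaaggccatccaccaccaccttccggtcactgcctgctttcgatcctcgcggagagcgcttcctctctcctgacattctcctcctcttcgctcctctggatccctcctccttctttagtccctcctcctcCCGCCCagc
RefSeq windows of 7 of the genes were searched. Errfi1 has 2, of which the downstream one is shown.

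The Areg window holds TGACGTCA from 61 to 54 bases before the start, a GC box from 52 to 47 and TATAAA from 31 to 26. The downstream Errfi1 window holds TGACGTCA from 51 to 44 bases before its start, overlapped by a hypoxia response core, and TATAAA from 28 to 23. TGACGTCA stands in 1.55% of all 32851 windows of this length, TATAAA in 12.4%, the GC box in 32.7%, the hypoxia response core in 16.6%, the TEAD core in 12.6% and the AP-1 letters in 6.75%. Hbegf was left out of the search, so nothing is known here of its motifs, and no window was at hand for Ereg or Erbb3. Of the 8 windows searched, only those of Areg and downstream Errfi1 held TGACGTCA. The Btc window held none of the 6 motifs and the Egfr window only a GC box. A match describes letters and says nothing of whether a factor bound.

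The levels took a few orders across the libraries. Of the 10 genes 5 (Ereg, Tgfa, Btc, Egfr and Erbb3) were highest in the labelled knockout, then Mist1+, then Mist1-. Another 3 (Hbegf, Erbb2 and Errfi1) were highest in Mist1+, then the labelled knockout, then Mist1-. Areg alone was lowest in Mist1+, and Epgn had too few reads for an order. Mist1- had the lowest value for 8 of the 10. Of all 13351 genes that passed the filter, 7848 were higher in Mist1+ than in Mist1-. For the labelled knockout against Mist1- the number was 7256. Ratios against Mist1- also went with transcript length, as described further on.

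**Figure D1:**
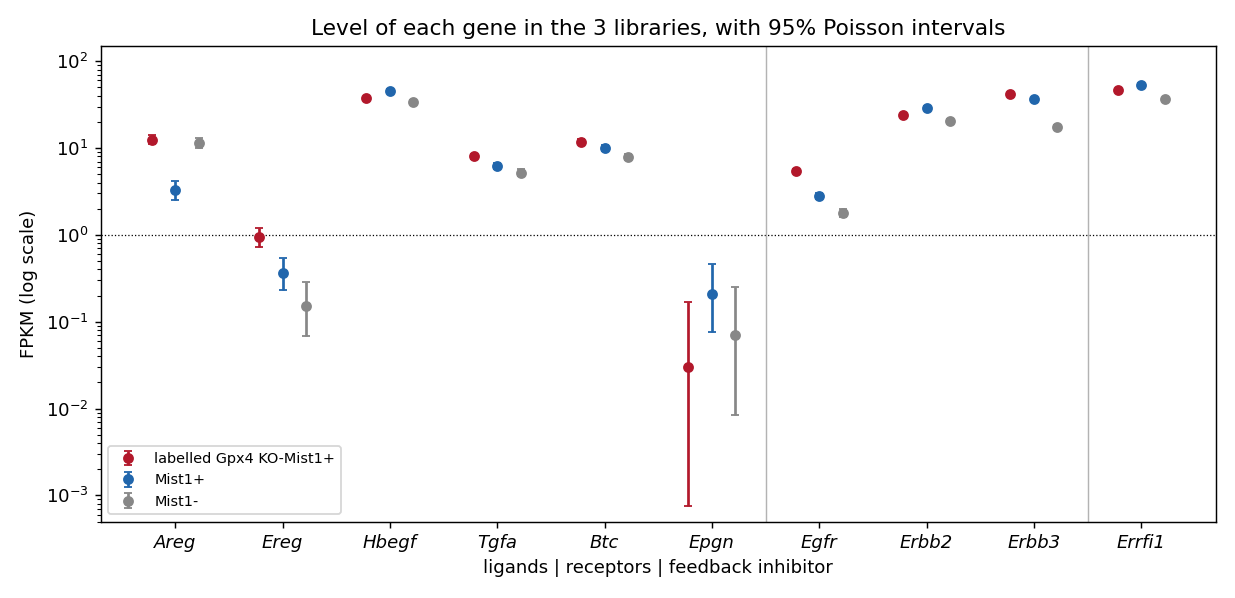
FPKM of the 10 genes in each library on a log axis, with 95% Poisson intervals for counting error; red is the library labelled Gpx4 KO-Mist1+, blue Mist1+ and grey Mist1-, the dotted line is 1 FPKM, and the grey lines part ligands, receptors and inhibitor. Areg is the gene whose Mist1+ point lies below both others with a separate interval, and Errfi1 has the highest level in every library.

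Areg encodes amphiregulin, a ligand of Egfr that is widely induced in epithelial repair. It had 250 counts in the labelled knockout, 64 in Mist1+ and 208 in Mist1-, at levels of 12.6 FPKM (11.0 to 14.2), 3.25 (2.50 to 4.15) and 11.5 (9.96 to 13.1). The labelled knockout and Mist1- were both high, with overlapping intervals, and Mist1+ was low. The fold of counts scaled to the library totals was 3.86 (2.92 to 5.16) for the labelled knockout over Mist1+, while Areg was 3.52-fold lower (2.65 to 4.73) in Mist1+ than in Mist1-. Both folds share the Mist1+ library, so they are not separate evidence. Set against Mist1- the labelled knockout was 1.10-fold (0.908 to 1.32), an interval that includes 1. The surface pit cell markers Tff1, Gkn1, Gkn2 and Muc5ac summed to 90.4 FPKM in the labelled knockout, 98.0 in Mist1+ and 713 in Mist1-. Most of that was Tff1, at 87.7, 90.6 and 657 FPKM in the same order. Gkn1 and Gkn2 were also highest in Mist1-, while Muc5ac was low in every library, at 0.18, 0.14 and 0.22 FPKM. The mucous neck cell markers Muc6, Tff2, Aqp5 and Glipr1 summed to 729 FPKM in the labelled knockout, 181 in Mist1+ and 353 in Mist1-, most of it in the labelled knockout from Aqp5 at 568 FPKM. Single genes of that list had other orders: Muc6 stood at 20.61 FPKM in the labelled knockout, 19.96 in Mist1+ and 5.71 in Mist1-, and Tff2 at 111, 52.5 and 178 in the same order. The part of these markers in the Areg values was not tested.

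Hbegf encodes heparin-binding EGF-like growth factor, which binds Egfr and Erbb4. Its gene stands at chromosome 18, 36504927 to 36515805, minus strand, and it was the most abundant of the ligand transcripts. It had 2964 counts in the labelled knockout, 3596 in Mist1+ and 2464 in Mist1-, or 37.4 (36.1 to 38.8), 46.0 (44.5 to 47.5) and 34.1 (32.8 to 35.5) FPKM. Mist1+ was highest, and the 3 intervals were separate. Hbegf was 1.23-fold lower (1.17 to 1.29) in the labelled knockout than in Mist1+, and 1.35-fold higher (1.28 to 1.42) in Mist1+ than in Mist1-.

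Tgfa, the gene of TGF-alpha, lies on the plus strand of chromosome 6 from 86195223 to 86275719. There were 861 counts in the labelled knockout, 659 in Mist1+ and 505 in Mist1-, or 8.09 (7.56 to 8.65), 6.27 (5.80 to 6.77) and 5.21 (4.77 to 5.68) FPKM. Btc, for betacellulin, which binds Egfr and Erbb4, had 880, 738 and 537 counts in the same order of libraries. Its levels were 11.9 (11.1 to 12.7) FPKM in the labelled knockout, 10.1 (9.38 to 10.8) in Mist1+ and 7.95 (7.29 to 8.65) in Mist1-. Both ligands thus stepped down in the same order with separate intervals. The labelled knockout was 1.29-fold (1.16 to 1.43) of Mist1+ for Tgfa and 1.18-fold (1.07 to 1.30) for Btc. Set against Mist1-, it was 1.55-fold (1.39 to 1.74) for Tgfa and 1.49-fold (1.34 to 1.67) for Btc. The step of Tgfa between Mist1+ and Mist1-, 1.20-fold (1.07 to 1.36), had the other sign once a trend with transcript length, described further on, was removed.

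Ereg and Epgn encode epiregulin and epigen, further ligands of Egfr. Ereg (chromosome 5, 91074622 to 91093646, plus strand) had 64 counts in the labelled knockout, 24 in Mist1+ and 9 in Mist1-. That is 0.95 FPKM (0.732 to 1.21), 0.36 (0.231 to 0.536) and 0.15 (0.0686 to 0.285), so only the labelled knockout came close to the filter of 1 FPKM. In scaled counts the labelled knockout was 2.63-fold (1.62 to 4.40) of Mist1+ and 6.48-fold (3.21 to 14.8) of Mist1-. Unlike its neighbour Areg, it was not low in Mist1+, where it was 2.46-fold (1.10 to 6.02) of Mist1-. An antisense gene, Gm19610, overlaps Ereg, with 5 counts in the labelled knockout and 0 in both others. Epgn (chromosome 5, 91027464 to 91035215, plus strand) had 1 count in the labelled knockout, 6 in Mist1+ and 2 in Mist1-, and the intervals overlapped throughout.

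Summed per length, the 6 ligands stood at 70.9 FPKM in the labelled knockout, 66.1 in Mist1+ and 59.0 in Mist1-. Hbegf gave 52.8% of that sum in the labelled knockout, 69.5% in Mist1+ and 57.9% in Mist1-. Areg gave 17.7%, 4.91% and 19.4% of it in the same order. The level of Hbegf was 2.98 times that of Areg in the labelled knockout, 14.1 times in Mist1+ and 2.98 times in Mist1-. The order below Hbegf therefore differed: Areg and Btc had overlapping intervals in the labelled knockout, Areg stood above Btc in Mist1-, and in Mist1+ it stood below both Btc and Tgfa.

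**Figure D2:**
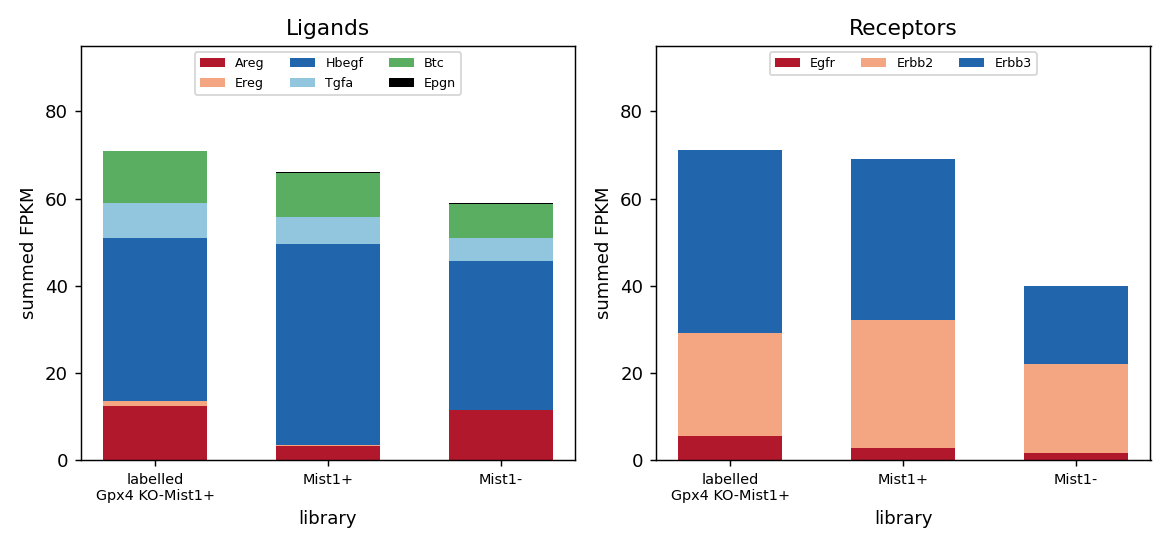
Stacked FPKM of the ligand genes (left) and receptor genes (right) in each library, 1 library per bar. The ligand sums lie between 59.0 and 70.9 FPKM with a thin Areg part in Mist1+, and the receptor sum of Mist1- is 39.9 FPKM, below 71.1 in the labelled knockout and 69.1 in Mist1+.

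Among the receptors, Egfr (ENSMUSG00000020122, chromosome 11, 16752203 to 16918158, plus strand) had the lowest level and differed most between the labelled knockout and Mist1+. It had 1015 counts in the labelled knockout, 517 in Mist1+ and 305 in Mist1-, or 5.47 (5.14 to 5.82), 2.82 (2.58 to 3.07) and 1.80 (1.60 to 2.01) FPKM. The 3 libraries stepped down in that order and the intervals did not overlap. In scaled counts the labelled knockout was 1.94-fold (1.74 to 2.16) of Mist1+ and 3.03-fold (2.67 to 3.46) of Mist1-, and Mist1+ was 1.56-fold (1.36 to 1.81) of Mist1-, a step whose sign turned once the length trend was removed. The antisense gene Egfros overlaps it, with 3 counts in the labelled knockout and 0 in both others.

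Erbb3 (ENSMUSG00000018166, chromosome 10, 128567523 to 128589652, minus strand) had 4126 counts in the labelled knockout, 3602 in Mist1+ and 1591 in Mist1-. Its levels were 41.8 (40.6 to 43.1), 37.0 (35.8 to 38.2) and 17.7 (16.8 to 18.6) FPKM. The labelled knockout and Mist1+ were high and Mist1- was low. Mist1+ was 2.09-fold (1.97 to 2.22) of Mist1-, the labelled knockout was 2.36-fold (2.23 to 2.51) of Mist1-, and between the labelled knockout and Mist1+ the fold was 1.13 (1.08 to 1.18).

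Erbb2 (ENSMUSG00000062312, chromosome 11, 98412470 to 98437716, plus strand) had 2032 counts in the labelled knockout, 2468 in Mist1+ and 1587 in Mist1-, or 23.8 (22.8 to 24.8), 29.3 (28.1 to 30.4) and 20.4 (19.4 to 21.4) FPKM. It was 1.23-fold lower (1.16 to 1.31) in the labelled knockout than in Mist1+ and 1.44-fold higher (1.35 to 1.53) in Mist1+ than in Mist1-. The protein-coding gene Mien1 overlaps Erbb2 on the other strand and had 65.4 FPKM in the labelled knockout, 48.7 in Mist1+ and 120 in Mist1-; the strand setting of the counting is not given in the sources used here, so reads of the overlap cannot be assigned. Per length, Erbb3 stood at 1.76 times Erbb2 in the labelled knockout and 1.26 times in Mist1+, but at 0.868 times in Mist1-. Erbb2 stood at 4.35 times Egfr in the labelled knockout, 10.4 times in Mist1+ and 11.3 times in Mist1-.

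Errfi1 (ENSMUSG00000028967, chromosome 4, 150853919 to 150868892, plus strand) had the highest FPKM of the 10 genes in each library, although its interval overlapped that of Hbegf in Mist1-. It had 2731 counts in the labelled knockout, 3114 in Mist1+ and 1944 in Mist1-, or 46.5 (44.8 to 48.3), 53.7 (51.8 to 55.6) and 36.3 (34.7 to 38.0) FPKM. Like Hbegf and Erbb2, it was highest in Mist1+. It was 1.15-fold lower (1.10 to 1.22) in the labelled knockout than in Mist1+ and 1.48-fold higher (1.40 to 1.57) in Mist1+ than in Mist1-.

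**Figure D3:**
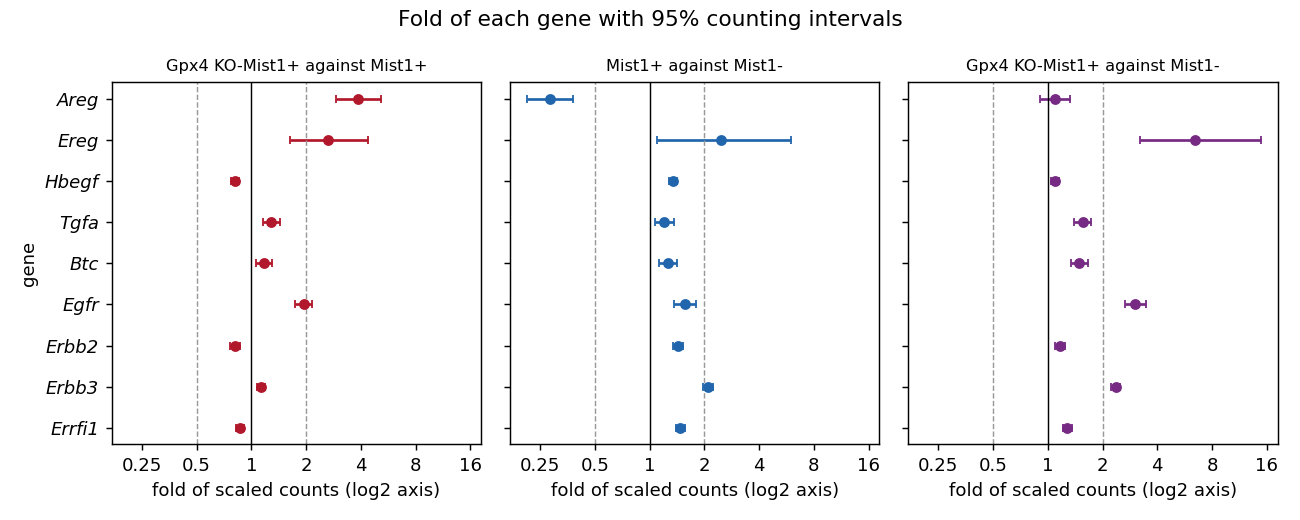
Fold of counts scaled to the column totals for 9 genes in the 3 comparisons, on a log2 axis with exact 95% counting intervals; dashed lines mark 2-fold either way, and Epgn is left out for its few counts. Areg lies at 3.86 for the labelled knockout against Mist1+ and on the other side of 1 for Mist1+ against Mist1-.

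Each comparison was next set against all 13351 genes that passed the filter, counting a gene as called when FPKM + 1 differed at least 2-fold. This measure is milder for low genes than the folds above. Between the labelled knockout and Mist1+, whose labels differ in Gpx4 only, 1 of the 8 passing genes was called higher and none lower. The gene called higher was Areg, with a log2 ratio of 1.67. Over all genes 4.81% were called higher, 2.74% lower and 7.55% either way. Egfr had a log2 ratio of 0.76 and the other 6 lay between -0.29 and 0.32. The median of the 8 was 0.19, beside -0.09 for all genes.

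Between Mist1+ and Mist1-, the pair of wild-type cultures, Erbb3 was called higher (log2 ratio 1.02) and Areg lower (-1.55). Over all genes 7.88% were called higher, 5.73% lower and 13.6% either way. The other 6 had log2 ratios from 0.23 for Tgfa to 0.55 for Errfi1, all above 0, as were 7848 of the 13351 genes. The median of the 8 was 0.43, beside 0.15 for all genes. Between the labelled knockout and Mist1-, Egfr (1.21) and Erbb3 (1.20) were called higher and none lower, against 11.6% called higher, 8.56% lower and 20.2% either way over all genes. All 8 were above 0, as were 7256 of the 13351 genes, with a median of 0.44 for the 8 beside 0.09 for all genes. The comparisons share libraries in pairs, so the lists of called genes are not independent.

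Ratios against Mist1- went with exonic length. The Spearman rho between length and log2 ratio over the 13351 genes was 0.49 for Mist1+ against Mist1- and 0.39 for the labelled knockout against Mist1-, but -0.02 for the labelled knockout against Mist1+; genes are not independent replicates. Egfr, with 11326 exonic bases, is the longest of the 10, and Areg, with 1215, the shortest. With the trend on length removed, the log2 ratio for Mist1+ against Mist1- was -0.23 for Egfr and -0.19 for Tgfa, both on the other side of 0, while Erbb3 (0.64) and Errfi1 (0.50) stayed above 0 and Areg was at -1.09. Against Mist1- the labelled knockout then had 0.56 for Egfr, 0.91 for Erbb3 and 0.56 for Areg, none of which is 2-fold. Against Mist1+ it had 1.73 for Areg and 0.80 for Egfr, close to the values before. In that comparison Hbegf and Erbb2 each went from -0.29 to -0.17 and Errfi1 from -0.20 to -0.08. Tgfa went from 0.32 to 0.43, Btc from 0.21 to 0.34 and Erbb3 from 0.17 to 0.29. With the trend removed, the median of the 8 passing genes was 0.14 for Mist1+ against Mist1-, beside 0.006 for all genes. For the labelled knockout against Mist1- that median was 0.41, beside -0.006 for all genes.

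**Figure D4:**
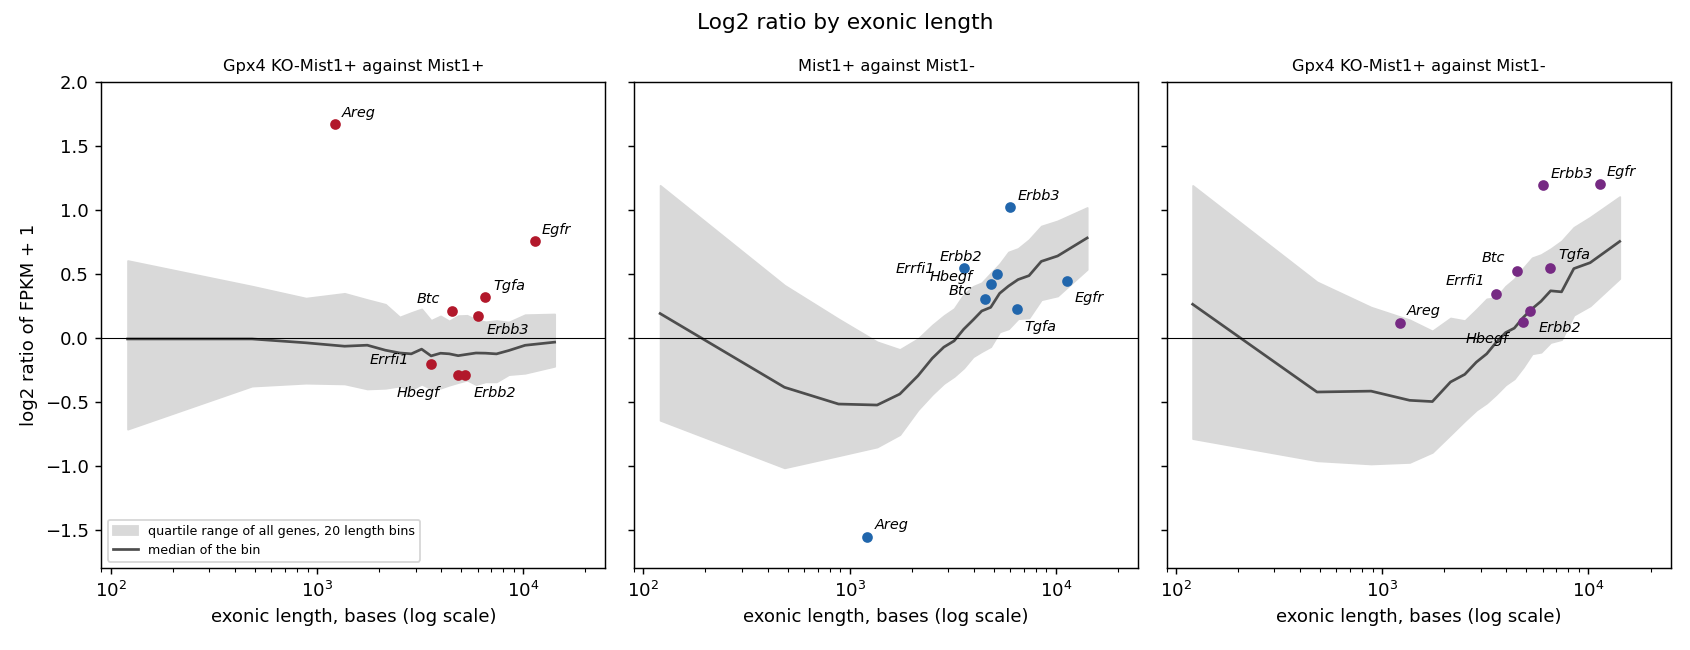
Log2 ratio of FPKM + 1 by exonic length (log axis) in the 3 comparisons; the line and band are the median and quartiles of all 13351 genes in 20 length bins, and the points are the 8 genes that passed the filter. In the left panel Areg (1.67) and Egfr (0.76) stand highest above a flat band; in the middle panel the band dips and then climbs with length among the longer transcripts, Egfr at 0.45 and Tgfa at 0.23 lie below the median line, Erbb3 lies above the band and Areg below it.

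Other ligands and the fourth receptor were nearly absent. None of Egf, Nrg1, Nrg2, Nrg3, Nrg4 and Erbb4 passed the filter, and Erbb4 and Nrg3 had 0 counts in every library. Nrg1 encodes neuregulin 1, a ligand of Erbb3, and only the longest of its several rows was read. That row had 65 counts in the labelled knockout, 5 in Mist1+ and 7 in Mist1-. At 0.26, 0.02 and 0.03 FPKM these are low levels, but the scaled counts of the labelled knockout were 12.8-fold (5.23 to 40.8) those of Mist1+ and 8.46-fold (3.88 to 21.9) those of Mist1-. Nrg4, whose product binds Erbb4, had 29, 53 and 23 counts in the same order. Egf itself had 16, 9 and 3 counts.

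Of 10 genes that act on ligand release, 8 passed the filter. None of these was called between the labelled knockout and Mist1+, beside 7.55% of all genes called either way. Log2 ratios were above 0 for 3 and below 0 for 5, with a median of -0.09 like that of all genes. The proteases Adam10 and Adam17, which release most EGF family ligands, stood at 72.1 and 18.8 FPKM in the labelled knockout, 86.3 and 22.3 in Mist1+, and 48.8 and 15.9 in Mist1-. Adam8 was the member furthest apart, with 8.56 FPKM in the labelled knockout, 4.87 in Mist1+ and 3.12 in Mist1-, 2.75-fold (2.35 to 3.22) over Mist1- in scaled counts. Adam9 stood at 80.5 FPKM in the labelled knockout, 58.1 in Mist1+ and 35.7 in Mist1-. Rhbdf2, for iRhom2, a cofactor that carries Adam17 to the surface, stood at 11.7, 9.47 and 7.19 FPKM in the same order. For the labelled knockout against Mist1-, Adam8 (1.21) and Adam9 (1.15) were called higher and none lower, beside 11.6% and 8.56% of all genes. With the trend on length removed these 2 had 1.09 and 1.11.

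Of 13 genes that restrain or turn over the receptors all passed the filter. None was called between the labelled knockout and Mist1+, beside 7.55% of all genes called either way, and the median was 0.10. Lrig1, a membrane protein that promotes removal of ERBB receptors, stood at 57.4 FPKM in the labelled knockout, 42.5 in Mist1+ and 21.9 in Mist1-, the same order as Erbb3 and Egfr. Its relative Lrig3 had 12.4, 5.74 and 4.68 FPKM in that order, 2.17-fold (1.99 to 2.36) for the labelled knockout over Mist1+, and just missed the 2-fold call with a log2 ratio of 0.9957. The ubiquitin ligase gene Cbl was nearly equal in the labelled knockout and Mist1+, with 6.94 and 6.95 FPKM, against 2.2 in Mist1-. The phosphatase gene Ptprj had 8.97 FPKM in the labelled knockout, 6.48 in Mist1+ and 3.68 in Mist1-. Between Mist1+ and Mist1- 2 of the 13 were called higher, Cbl (1.31) and Cblb (1.07), and none lower, beside 7.88% and 5.73% of all genes. With length removed neither was 2-fold, at 0.60 for Cbl and 0.43 for Cblb, and the median of the list was 0.14, against 0.57 before. For the labelled knockout against Mist1-, 5 of the 13 were called higher and none lower, beside 11.6% and 8.56% of all genes. The median there was 0.75, or 0.14 with length removed.

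Among the lists, RAS-ERK feedback genes and transcripts taken as responding to ERK signalling had the highest medians between the labelled knockout and Mist1+. The lists were chosen with earlier results of these data known, and ERK activity was not tested. Of 11 RAS-ERK feedback genes 10 were in the table and 9 passed the filter; Spry3 was not analysed here. Between the labelled knockout and Mist1+, Dusp4 and Dusp6, phosphatases that switch off ERK and related kinases, were called higher and none lower, 2 of 9 beside 4.81% higher and 2.74% lower over all genes. The median was 0.51 beside -0.09 for all genes. Dusp4 stood at 23.4 FPKM in the labelled knockout, 6.18 in Mist1+ and 4.23 in Mist1-, so 3.79-fold (3.31 to 4.34) over Mist1+. Dusp6 stood at 47.8, 19.3 and 15.7 FPKM in that order, 2.48-fold (2.30 to 2.67) over Mist1+. The RAS inhibitors Spred1 and Spred2 had 16.5 and 17.5 FPKM in the labelled knockout, 13.4 and 11.5 in Mist1+, and 7.08 and 6.24 in Mist1-. Spry1, of the same inhibitor family, had the opposite direction, with a log2 ratio of -0.59.

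Of 12 ERK response transcripts 11 passed the filter, and 3 were called higher in the labelled knockout than in Mist1+ and none lower, beside 4.81% and 2.74% of all genes, with a median of 0.72. Ier3, an immediate-early gene that modulates cell survival, stood at 128 FPKM in the labelled knockout, 29.0 in Mist1+ and 70.1 in Mist1-. Like Areg it was lowest in Mist1+, 4.41-fold (4.01 to 4.85) higher in the labelled knockout than in Mist1+ and 2.42-fold lower (2.18 to 2.69) in Mist1+ than in Mist1-. Ccnd1, for cyclin D1, stood at 106 FPKM in the labelled knockout, 46.5 in Mist1+ and 38.3 in Mist1-, and Phlda1 at 103, 45.2 and 61.7. The ETS factor gene Etv5 stood at 31.8, 16.4 and 10.2 FPKM in the same order. The list was not uniform: for the labelled knockout against Mist1+ the log2 ratio was -0.44 for Egr1, -0.21 for Fos, -0.27 for Mcl1 and -0.02 for Plaur.

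Of the 16 genes of the kinase cascade itself, all of which passed, 1 was called between the labelled knockout and Mist1+: Hras, which encodes a RAS protein, was lower, with 6.98 FPKM in the labelled knockout, 15.1 in Mist1+ and 25.7 in Mist1-, with a log2 ratio of -1.01, or -0.88 with the length trend removed. That is 1 of 16, beside 7.55% of all genes called either way, and the median of the 16 was -0.06. Braf had 4.50 FPKM in the labelled knockout, 4.06 in Mist1+ and 1.24 in Mist1-, and Sos1 had 6.06, 5.82 and 2.2 in the same order, and both are long transcripts for which the ratio against Mist1- was under 2-fold once the length trend was removed.

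Receptor tyrosine kinases outside the family were set beside Egfr, Erbb2 and Erbb3. Of 18 such genes 12 passed the filter. None was called between the labelled knockout and Mist1+, beside 7.55% of all genes called either way. The median was 0.24 and the range -0.78 to 0.81. The log2 ratio of Egfr, 0.76, lay within that range, next to the growth factor receptor gene Fgfr2 at 0.74 and Epha2, an ephrin receptor gene, at 0.81. Between Mist1+ and Mist1- all 12 were above 0, with a median of 0.55, or 0.18 with length removed, and the 3 ERBB receptors were above 0 too. The top of the list there was Fgfr3 at 1.02, and Erbb3 had the same value to 2 decimals. Epha2 stood at 51.7 FPKM in the labelled knockout, 29.1 in Mist1+ and 21.8 in Mist1-, and Fgfr2 at 6.78, 3.65 and 2.05 in that order. Between the labelled knockout and Mist1-, 4 of the 12 were called higher, beside 11.6% of all genes: Fgfr2 at 1.35, Insr, for the insulin receptor, at 1.32, Igf1r, for that of IGF1, at 1.27 and Epha2 at 1.21. With length removed Epha2 had 1.08, Fgfr2 0.75, Insr 0.59 and Igf1r 0.45.

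**Figure D5:**
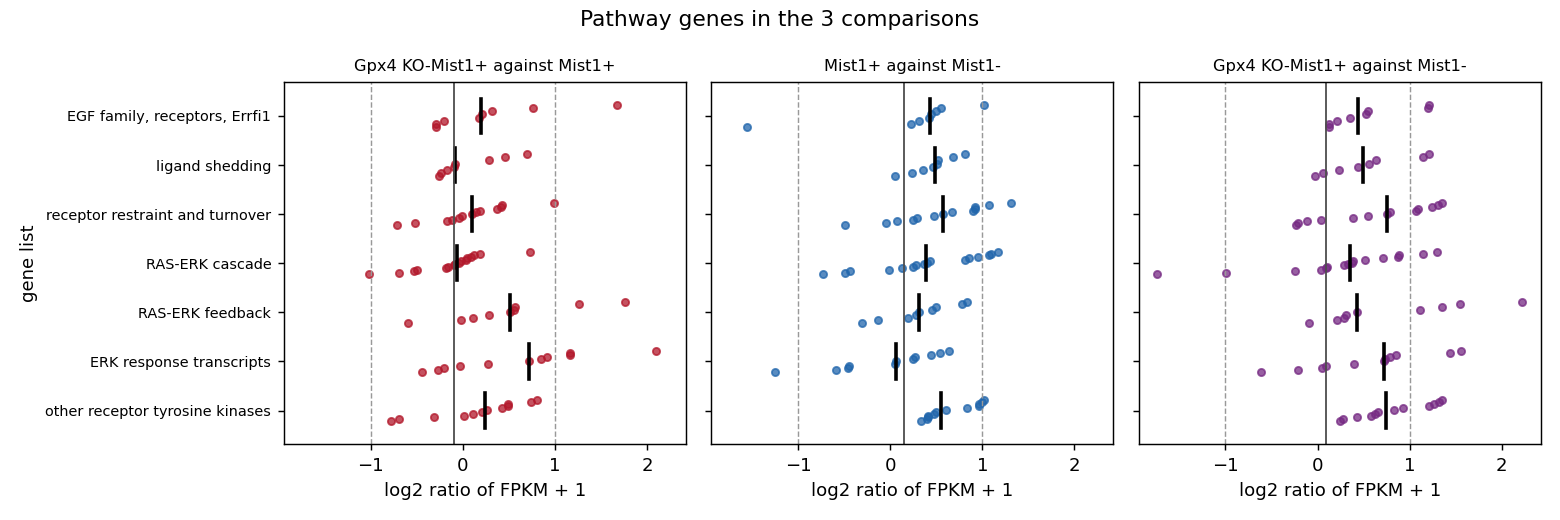
Log2 ratio of FPKM + 1 for the genes of 7 lists that passed the filter, in the 3 comparisons; each point is a gene, the black bar is the list's median, the grey line is the median of all genes, and dashed lines mark 2-fold. In the left panel the feedback and response lists have medians of 0.51 and 0.72, and the kinase cascade has -0.06.

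Genes of similar pattern were looked up by the distance between their 2 log2 ratios, Mist1+ against Mist1- and the labelled knockout against Mist1+, over 3 libraries and 8654 genes with a symbol and at least 5 FPKM in some library. Within a distance of 0.25 lay 7 genes for Areg, 114 for Egfr and 902 for Errfi1. The nearest to Areg were Serpinb5, with 11.6 FPKM in the labelled knockout, 2.85 in Mist1+ and 9.78 in Mist1-, and the pseudogenes Tma7-ps and Ndufa12-ps. The nearest to Egfr were Zmynd8, Atp10a and Susd1, and the nearest to Errfi1 were Ndnf, Cbx3 and Urgcp. With 3 libraries such nearness is a description of these values only.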

How the data were processed

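RNA sequencing of 3 libraries was used, 1 per group. Per the submitters' processing notes the tools were cutadapt 1.9.1, HISAT2 2.2.1 and HTSeq 0.6.1 and the build GRCm38.p5. The deposited table gives, per the file headers, a count (whole reads per gene) and an FPKM from the authors for each library; FPKM differed from count over exonic length and column total by at most 2.77% among genes with at least 50 counts. The start positions in the table differ from GENCODE M21 for all 10 genes, so positions are from M21 on GRCm38. Counts have exact 95% Poisson intervals; folds are ratios of counts scaled to column totals, with the exact interval of the binomial split. Log2 ratios add 1 to each FPKM, and lowess (fraction 0.3) removed the length trend. The work ran in Python 3.11.15 with scipy 1.17.1 for intervals, statsmodels 0.14.6 for lowess, pandas 2.3.3 and numpy 2.4.6 for tables and matplotlib 3.10.9 for plots. The calls and intervals were tried on simulated Poisson counts, the same model that the intervals assume. The simulation held no spread between cultures, so it cannot tell how the intervals cover that spread. The genes and lists were chosen with earlier results of these data known. From each pathway list up to 4 genes with the largest ratios were named, by rule, except 1 that is not reported here; others named in the text (Egf, Nrg1, Nrg3, Nrg4, Erbb4, Adam17, Aqp5 and other markers, Cblb, Spry1, Egr1, Fos, Mcl1, Plaur, Fgfr3, Cd68 and the overlapping genes) were chosen after their values were seen. Where a symbol had several rows (Nrg1) the one with the greatest exonic length was taken. Alternatives tried were a pseudocount of 0.1 or 5, a filter at 5 FPKM or none, TPM, median ratio scaling, CPM, 1.5-fold and 4-fold calls, and the length trend removed.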

Additional observations from a re-analysis of the deposited data

How the results depend on the processing

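No paired analysis was possible because each group has 1 library, and for the same reason no replicate could be left out. Over 10 alternatives none of the called genes changed the sign of its log2 ratio. Of these alternatives only TPM, median ratio scaling and removal of the length trend could turn a sign. The other filters, fold thresholds, pseudocounts and CPM keep it by construction. Between the labelled knockout and Mist1+, the count of genes called higher was 2 at 1.5-fold (Areg and Egfr) and 0 at 4-fold, against 1 in the main setting; the ratio of Areg ran from 1.09 to 1.92. Between Mist1+ and Mist1-, the count called higher was 0 with a pseudocount of 5, median ratio scaling, 4-fold calls or the length trend removed, against 1 (Erbb3, whose ratio ran from 0.64 to 1.37). The count called lower was 0 with a pseudocount of 5 and at 4-fold, against 1 (Areg, -1.79 to -0.996). Between the labelled knockout and Mist1-, the count called higher was 1 with a pseudocount of 5 (Erbb3), 0 at 4-fold and 0 with the length trend removed, against 2; Ereg was added on TPM and CPM, which gave 3. The cause was not tested, beyond what each setting changes by construction.

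Of 24 ratios of the 8 genes, 4 changed sign under some setting: Tgfa and Egfr for Mist1+ against Mist1-, and Areg and Hbegf for the labelled knockout against Mist1-, none of them called there. Each scaling was filtered on its own unit, so scaling and gene set changed together. TPM kept 16770 genes, median ratio scaling kept 13298 and the main setting 13351. The median of all genes for Mist1+ against Mist1- was 0.45 on TPM and 0.15 in the main setting, and the calls over all genes were 3795 higher and 673 lower on TPM, 643 and 1226 with median ratio scaling, and 1052 and 765 in the main setting; for the labelled knockout against Mist1- they were 4076 and 998, 1275 and 1511, and 1553 and 1143. With a pseudocount of 5 the calls over all genes were 226 higher and 70 lower for the labelled knockout against Mist1+, 129 and 396 for Mist1+ against Mist1-, and 349 and 564 for the labelled knockout against Mist1-; on TPM the first of these comparisons had 1348 and 1100, and in the main setting 642 and 366. The depth limits Epgn and Nrg1, whose libraries with few counts give wide intervals: for a transcript of 1000 bases, 3 counts are 0.183 to 0.201 FPKM.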
